A study of Mus musculus with 5 samples.

Results

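The genes described here encode the soluble enzymes, the membrane proteins and the proton pump of the lysosome, followed across 5 clones of cardiac progenitor cells. The rule took every probe set assigned to 1 of 33 listed symbols, or to a single symbol beginning with Atp6v0 or Atp6v1, and found 114 probe sets for 53 genes out of 18193 named genes on the array. Of the 53 genes, 33 were the listed ones and 20 were pump subunits, 8 of the membrane sector V0 and 12 of the catalytic sector V1. The clones are named 1D, 11B, 20B, 30 and 42, and total RNA of each was hybridized to 1 Affymetrix expression array. All came from the heart left ventricle of adult mice aged 5 to 6 months, of a strain written C67BL/6 in the labels. Cells were captured with an antibody to Sca-1, and single colonies were expanded and then subcloned. The labels call them c-kit+ cardiac progenitor cells and list no treatment, genotype or time point that differs between clones. Each group is therefore 1 clonal line on 1 array, no difference could be tested, and no value below has a replicate check. A difference between clones cannot be told apart from a difference between cultures, RNA preparations or arrays.

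Lysosomes are acidic organelles that break down material delivered by endocytosis and autophagy. Their hydrolases work at low pH, which the vacuolar ATPase maintains: its cytosolic V1 sector hydrolyses ATP and its membrane V0 sector conducts protons into the lumen. Many of these genes are activated together by TFEB, a basic helix-loop-helix factor that binds the CLEAR element, an E-box with a preferred flank, in their promoters. In the heart, loss of LAMP2 or of the acid alpha-glucosidase encoded by Gaa is known to cause storage cardiomyopathies.

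Because many of these genes are known to be activated through the CLEAR element, their RefSeq promoter windows and those of all other genes were searched. The windows ran from 250 bases before to 50 bases after each annotated start (build GRCm38.p6). The motifs were CACGTG, TCACGTGA and the palindromic CLEAR consensus of 10 bases. Each of these motifs is its own reverse complement, so both strands were covered, and every match to a longer motif is also a match to the shorter ones. A window was found for 43 of the 53 genes. CACGTG was present for 14 of those 43 genes (32.6%), and in 8.09% of the 27025 genes with a window. TCACGTGA was present for 7 of the 43 (16.3%) and in 1.12% of all genes. The CLEAR consensus was present for 0 of the 43 and in 0.370% of all genes. The 7 genes with TCACGTGA were Atp6v0d1, Atp6v0e, Atp6v1a, Ctsa, Ctsd, Gla and Mcoln1. CACGTG without those flanks was found for Atp6v0b, Ctsf, Ctsl, Gaa, Glb1, Lamp1 and Lgmn.

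Of the genes with TCACGTGA, 3 are shown with the 250 bases upstream of an annotated start, 5′ to 3′, because among the 7 they ranged most between the clones. Capitals mark TCACGTGA only. The windows are chr7:142387828-142388077 on the minus strand for Ctsd, chr16:44139260-44139509 on the minus strand for Atp6v1a and chr2:164833523-164833772 on the plus strand for the downstream annotated start of Ctsa.
Ctsd: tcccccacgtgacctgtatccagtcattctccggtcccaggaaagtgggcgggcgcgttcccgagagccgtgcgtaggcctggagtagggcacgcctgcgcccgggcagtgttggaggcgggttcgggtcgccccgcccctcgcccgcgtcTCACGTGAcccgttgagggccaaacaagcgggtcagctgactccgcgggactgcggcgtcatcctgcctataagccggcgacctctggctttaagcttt
Atp6v1a: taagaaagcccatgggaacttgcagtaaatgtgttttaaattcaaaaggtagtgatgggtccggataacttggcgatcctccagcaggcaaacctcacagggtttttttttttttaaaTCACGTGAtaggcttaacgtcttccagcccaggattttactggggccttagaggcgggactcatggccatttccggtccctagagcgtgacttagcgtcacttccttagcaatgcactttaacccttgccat
Ctsa: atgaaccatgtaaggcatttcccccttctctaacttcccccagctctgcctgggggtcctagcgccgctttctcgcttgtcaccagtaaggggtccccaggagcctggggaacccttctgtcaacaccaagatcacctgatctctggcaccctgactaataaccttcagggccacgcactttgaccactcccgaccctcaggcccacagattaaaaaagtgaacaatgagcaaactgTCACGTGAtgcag
The motif begins 99 bases upstream of the start for Ctsd, 132 bases upstream for Atp6v1a and 13 bases upstream for Ctsa, where a further copy lies just past the start. For Atp6v0e the match also lies past the start and is not shown. A match describes the letters in the window and does not show that a factor binds there.

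The deposited values are linear ratios. For 18926 of 45101 probe sets (42.0%) the median over the arrays was exactly 1, and for the other 26175 it was below 1, and each value is read here as a probe set over its median or, for low medians, over a floor. The values thus carry differences between clones but no expression level. A probe set was followed if its median was 1 or any clone exceeded 1, and if its log2 range over the clones exceeded 0.05. Of the 114 member probe sets, 61 passed, 53 of them divided by their own median and 8 by the floor, which left 40 of the 53 genes, 24 on a single probe set. Measured probe sets of 1 gene differed in their deviations with a standard deviation of 0.42 log2 units over 3047 genes, which makes 0.30 per probe set, and 0.25 for the 16 members with more than 1. The 14 hybridization control probe sets had a standard deviation of 0.08 log2 units between arrays, and no error between samples of 1 clone can be had. The 5′ to 3′ signal ratio of Actb, a measure of RNA integrity, was 0.597 in clone 11B and 0.743 in clone 30 relative to clone 20B, against 1.08 in both other clones. That of Gapdh spread less, at 0.893 in clone 11B, 0.966 in 30, 1.12 in 1D and 1.05 in 42. On the floor, a probe set could pass through a single clone above 1, which then had to be its highest. This held for Ctsh (clone 1D), Neu1 (clone 30), Atp6v0e2 (clone 1D) and 1 probe set each of Lipa, Npc2, Ppt1 and Atp6v1b2 (clone 11B) and Atp6v1g1 (clone 30).

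No value could be followed for 13 genes. All probe sets of Ctsc, Ctsk, Ctso, Glb1, Manba, Npc1, Atp6v0a4, Atp6v0d2, Atp6v1b1 and Atp6v1g2 lay at or below the floor in every clone. Ctsk, the collagenolytic cathepsin abundant in osteoclasts, had ratios between 0.566 and 0.574, and Atp6v0d2, the osteoclast form of the d subunit, between 0.459 and 0.593. Atp6v1b1, the B subunit form of kidney and inner ear, stood at 0.510 to 0.511. Glb1, the beta-galactosidase that most cells make, stood there too, at 0.574 to 0.580, and a place at the floor does not show that a gene is silent. Asah1, encoding acid ceramidase, was flat at 0.991 to 1.005. Ctsz, a carboxypeptidase-like cathepsin, and Man2b1, encoding lysosomal alpha-mannosidase, each had a flat probe set of this kind (0.993 to 1.012 and 0.999 to 1.004) beside others below the floor.

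Across the 40 measured members, the median range over the clones was 0.52 log2 units, against 0.41 over all 9435 measured genes, and 24 of the 40 lay at or above that value. A 2-fold range, 1 log2 unit, was reached by 7 members (17.5%), against 13.0% of all measured genes. These were Ctsd, Ctsl, Lamp2, Atp6v1a, Ctsf, Atp6v0b and Psap, and the last fell just past the limit at 1.001. In no member did 1 clone stand apart from the other 4 by 1 log2 unit or more, as 2.75% of all measured genes did in some clone. Left out one at a time, clones 1D, 11B and 20B each gave 1 such member, Lamp2, Ctsd and Ctsl respectively. Without clone 30, the 2-fold range was reached by 3 members (7.5%, against 8.18% of all measured genes). Over the 10 pairs of clones there were 13 such differences in all, 4 of them over the pairs without clone 30 and 7 over those without clone 42. Clones 30 and 42 held 3 (Lamp2 higher in 30, Ctsd and Ctsl higher in 42), where 4.08% of all genes were that far apart. Clone 30 was lower than 1D in Ctsd and Ctsl (4.88% of all genes apart, either direction), lower than 11B in Ctsl and Psap (4.36%) and lower than 20B in Ctsd and Atp6v0b (4.11%). Clone 42 was lower than 20B in Lamp2 and Atp6v1a (3.0%) and lower than 11B in Lamp2 (4.28%). Clone 11B was lower than 1D in Ctsf (3.29%). Clones 1D and 20B, 1D and 42, and 11B and 20B had 0 such members, against 1.25%, 2.56% and 1.7% of all genes. The shares of members are near the background, so these counts are not particular to lysosomal genes. A gene measured only through a high clone had to differ, but none of the 7 was measured on a probe set divided by the floor. Nor did any of the 7 pass the range limit through 1 clone alone. What the values do show is which members led in which clone.

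**Figure D1:**
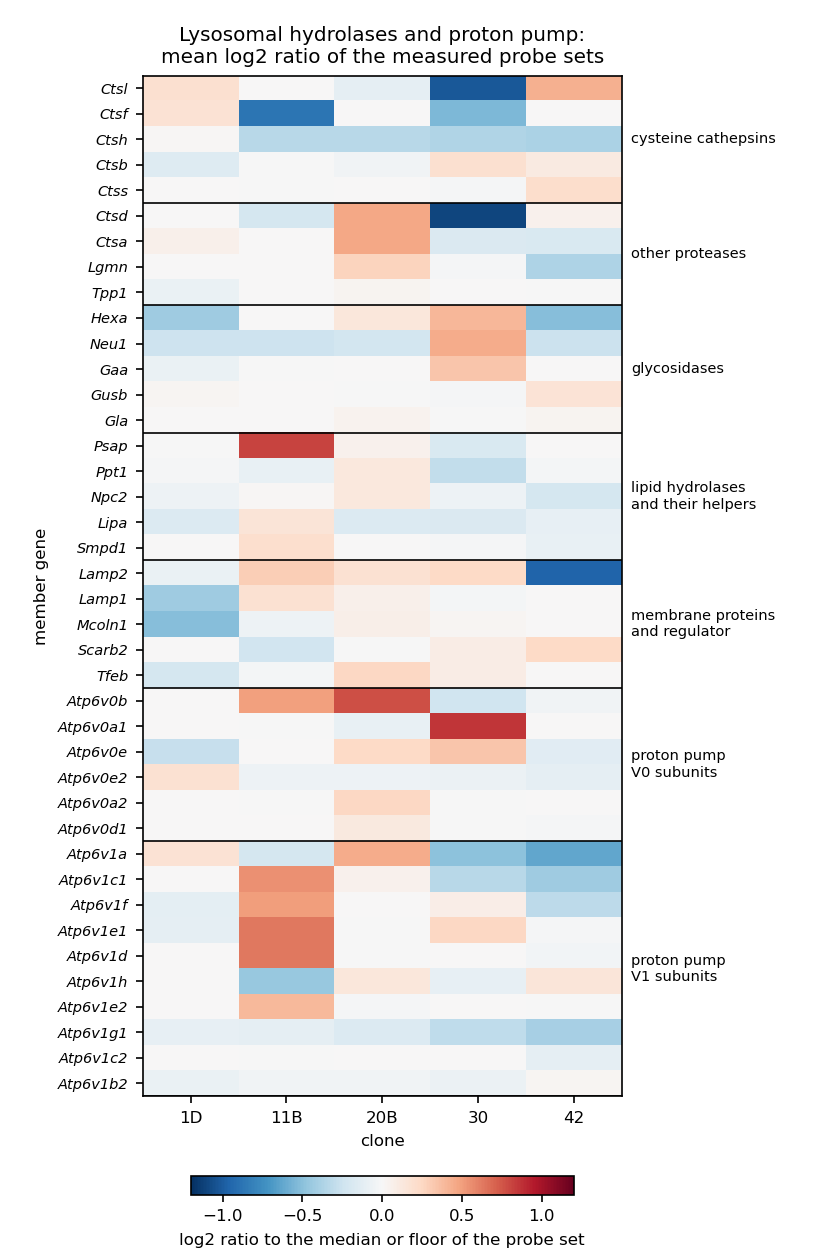
Mean log2 ratio of the measured probe sets of each of the 40 measured members (rows, grouped by role) in the 5 clones (columns, 1 array each), from blue (lower) to red (higher). Ctsl and Ctsd are darkest blue in clone 30 and Lamp2 in clone 42. Psap with Atp6v1c1, Atp6v1d, Atp6v1e1 and Atp6v1f is red in clone 11B. Ctsh, Neu1 and Atp6v0e2 were divided by the floor, and Lipa, Npc2, Ppt1, Atp6v1b2 and Atp6v1g1 include a probe set so divided. For these rows only the difference between clones has meaning.

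Among the proteases, clone 30 was low in cathepsins D and L. Ctsd encodes the main aspartic protease of the lysosome. Its single probe set, 1448118_a_at, had ratios of 1.00 in clone 1D, 0.866 in 11B, 1.38 in 20B, 0.467 in 30 and 1.03 in 42. Clone 30 was the lowest and 20B the highest, 2.96-fold apart, and clone 30 minus the median of the other 4, its deviation, was -1.12 log2 units. This was the largest range among the 40 measured members, 1.56 log2 units, larger than that of 96.6% of all measured genes. Ctsl encodes a cysteine protease with strong endopeptidase activity. On probe set 1451310_a_at its ratios were 1.14 in clone 1D, 1.00 in 11B, 0.925 in 20B, 0.494 in 30 and 1.34 in 42. Clone 30 was again lowest, with a deviation of -1.11 log2 units, and clone 42 was highest, 2.72-fold above it. The remaining probe set of Ctsl, 1457724_at, stayed below the floor in all clones at 0.544 to 0.550, and with it averaged in the deviation of clone 30 was -0.55. In clone 30 the 5′ to 3′ ratio was 0.743 for Actb and 0.966 for Gapdh, and the part of RNA integrity in these values was not tested.

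Other proteases followed other orders. Ctsf, a cysteine cathepsin, had ratios of 1.13 in clone 1D, 0.545 in 11B, 1.00 in 20B, 0.689 in 30 and 1.002 in 42. Clones 11B and 30 were thus low, with the highest clone, 1D, 2.07-fold above the lowest. The deviation of clone 11B was -0.88 log2 units, and -0.36 with the probe set below the floor averaged in. Ctsa, encoding protective protein/cathepsin A, which stabilizes neuraminidase and beta-galactosidase, stood at 1.91 in clone 20B on probe set 1448128_at, against 1.002 in 1D, 1.00 in 11B, 0.784 in 30 and 0.777 in 42. Its other probe set, 1458466_at, showed no such excess, with 0.994 in clone 20B and 1.09 in 1D, so the average deviation of clone 20B was 0.55 log2 units, and it was 1.11 on the first probe set. Lgmn, encoding the asparaginyl endopeptidase legumain, ran from 1.203 in clone 20B to 0.775 in 42. Its ratios in clones 1D, 11B and 30 were found again, all 3 alike, on 1067 other probe sets, so their closeness was no measurement. Ctsh had a range of 0.39 log2 units, from clone 1D at 1.01 to the others at 0.771 to 0.796, under the floor. Ctsb (0.35), Ctss (0.22) and Tpp1 (0.11) ranged less than the median gene, and on the Ctss probe set clone 42 (1.15) was the one whose ratio was not repeated elsewhere.

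None of the 5 measured glycosidases reached a 2-fold range, and Hexa was the widest. Hexa encodes the alpha subunit of beta-hexosaminidase, which degrades GM2 ganglioside. Its ratios were 0.743 in clone 1D, 1.00 in 11B, 1.098 in 20B, 1.32 in 30 and 0.701 in 42. Clones 1D and 42 were low and clone 30 high, 1.88-fold apart. Neu1, the lysosomal sialidase, was at 0.844 in clone 1D, 0.843 in 11B, 0.861 in 20B, 1.36 in 30 and 0.837 in 42 on probe set 1448481_at, so clone 30 alone passed the floor and was bound to be highest. Its other probe sets, 1416831_at (0.520 to 0.537) and 1447942_x_at (0.872 to 0.884), showed no excess in clone 30, and with all averaged the deviation fell from 0.69 to 0.22 log2 units. Gaa was at 1.26 in clone 30 and 0.945 in 1D on probe set 1436849_x_at, while its other probe set was flat at 0.995 to 1.007. Gusb and Gla ranged over 0.18 and 0.04 log2 units.

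Of the lipid-handling members, Psap was the one with a 2-fold range. It encodes prosaposin, the precursor of the saposins that present sphingolipids to their hydrolases. Probe set 1415687_a_at had ratios of 0.991 in clone 1D, 2.71 in 11B, 1.07 in 20B, 0.986 in 30 and 1.00 in 42. Clone 11B alone stood out there. Probe set 1421813_a_at also had its highest ratio in clone 11B and its lowest in 30, but only 1.14 and 0.784, and its ratios in clones 1D, 20B and 42 were repeated on 376 other probe sets. Averaged, the deviation of clone 11B was 0.82 log2 units. Lipa, the acid lipase of cholesteryl ester breakdown, was at 1.24 in clone 11B and 0.790 to 0.801 elsewhere on probe set 1423141_at. On 1423140_at clone 11B was at 0.998, so its average excess of 0.32 log2 units rested on 1 probe set. Ppt1, a palmitoyl thioesterase, had 1.001 in clone 1D, 0.808 in 11B, 1.22 in 20B, 0.674 in 30 and 1.00 in 42 on probe set 1422468_at, while 1444884_at was highest in clone 11B at 1.09. Clone 30 was lowest on average. Npc2, which passes cholesterol to the NPC1 protein, and Smpd1, encoding acid sphingomyelinase, ranged over 0.33 and 0.29.

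Among the membrane proteins, Lamp2 was lowest in clone 42, and Lamp1 and Mcoln1 were lowest in clone 1D. Lamp2 encodes an abundant glycoprotein of the lysosomal membrane needed for fusion with autophagosomes. Probe set 1434503_s_at had ratios of 0.957 in clone 1D, 1.08 in 11B, 1.00 in 20B, 1.36 in 30 and 0.353 in 42. Probe set 1428094_at gave the same lowest clone, with 0.881, 1.16, 1.00, 1.31 and 0.442 in the same order. On 1416344_at clone 42 was again lowest, at 0.863, but close to clone 30 at 0.917, while clones 11B and 20B stood at 1.47 and 1.46. A further probe set, 1416343_a_at, lay below the floor at 0.773 to 0.782. Averaged, the deviation of clone 42 was -1.17 log2 units, and it was -0.48 on the probe set whose mean was highest. Lamp1, the close relative of Lamp2, had ratios of 0.742 in clone 1D, 1.13 in 11B, 1.04 in 20B, 0.986 in 30 and 1.00 in 42. Mcoln1, encoding a calcium channel of the lysosomal membrane, was also lowest in clone 1D on both measured probe sets, at 0.677 and 0.729. Tfeb itself was at 0.865 in clone 1D, 0.983 in 11B, 1.19 in 20B, 1.06 in 30 and 1.00 in 42. Its range of 0.46 log2 units was little above the spread between probe sets of a gene. Scarb2, which carries glucocerebrosidase to lysosomes, ranged over 0.46 and was lowest in clone 11B at 0.855.

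**Figure D2:**
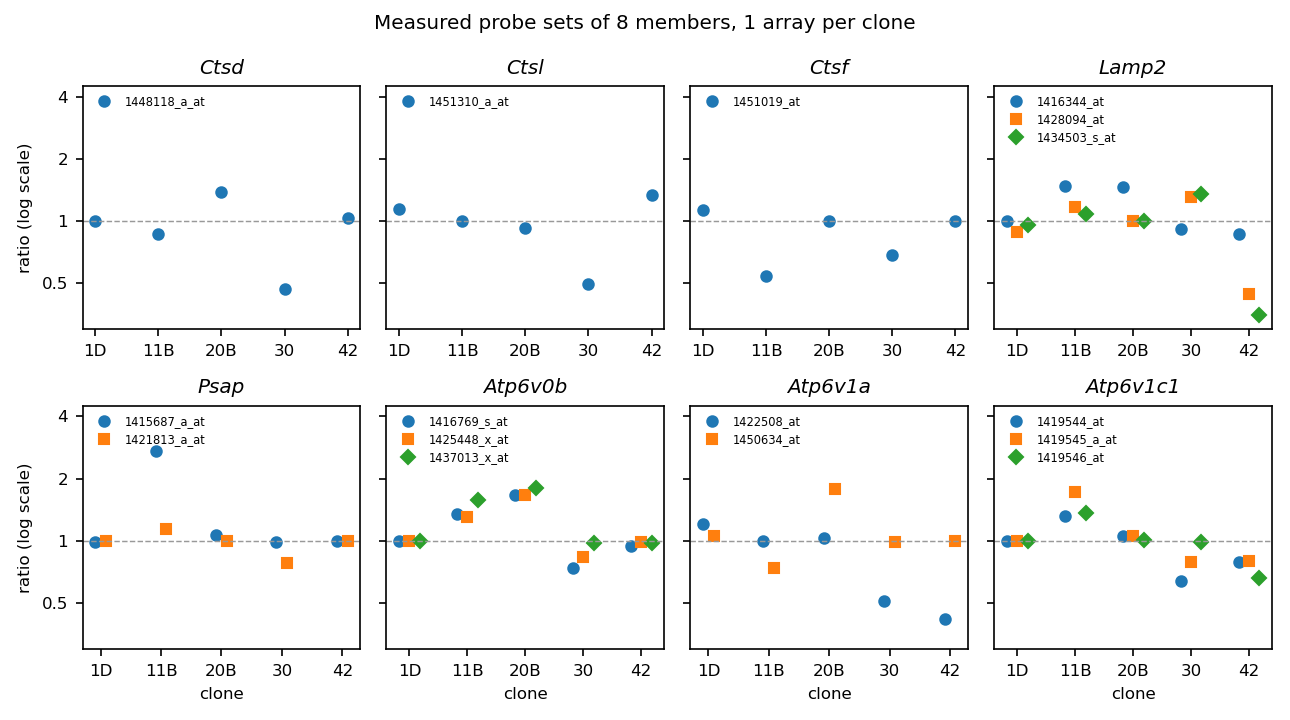
Ratios of every measured probe set (markers) of the 7 members that reached a 2-fold range and of Atp6v1c1, in each clone (1 array each), on a log axis where the dashed line marks 1. Lamp2 is lowest in clone 42 on its 3 measured probe sets and Atp6v1c1 highest in clone 11B on its 3, whereas Psap in clone 11B reaches 2.71 on 1 probe set and 1.14 on the other, and the 2 probe sets of Atp6v1a differ in shape.

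In the membrane sector of the pump, Atp6v0b and Atp6v0a1 led. Atp6v0b encodes a proteolipid of the proton-conducting ring. Its probe set 1416769_s_at had ratios of 1.00 in clone 1D, 1.34 in 11B, 1.67 in 20B, 0.741 in 30 and 0.947 in 42. Probe sets 1425448_x_at and 1437013_x_at gave the same order at the ends, with 1.66 and 1.80 in clone 20B and 0.836 and 0.978 in clone 30. Clone 20B was highest and 30 lowest on all 3, 2.02-fold apart on average, but all 3 carry suffixes that mark possible cross-hybridization. Atp6v0a1, one form of the a subunit, stood at 1.00 in clone 1D, 0.998 in 11B, 0.943 in 20B, 1.82 in 30 and 1.004 in 42 on 1417632_at. The ratios of clones 1D, 11B and 42 were repeated on 1212 other probe sets. Its 3 remaining probe sets were flat or below the floor, and with every probe set averaged its deviation of 0.86 log2 units in clone 30 became 0.21. Atp6v0e, a small membrane subunit, had 0.825 in clone 1D, 1.00 in 11B, 1.18 in 20B, 1.26 in 30 and 0.913 in 42. Atp6v0e2, Atp6v0a2 and Atp6v0d1 ranged over 0.29, 0.26 and 0.14 log2 units.

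In the catalytic sector, several subunits were highest in clone 11B. Atp6v1c1 encodes subunit C, which links V1 to V0. Its ratios in clone 11B were 1.32, 1.73 and 1.36 on probe sets 1419544_at, 1419545_a_at and 1419546_at. Clone 1D was at 1.00 on each, and clone 20B at 1.06, 1.05 and 1.01. In clone 30 they were 0.639, 0.790 and 0.989, and in clone 42 they were 0.790, 0.796 and 0.660. Clone 11B was highest on all 3, with an average deviation of 0.71 log2 units. Atp6v1e1, encoding a stalk subunit, stood at 1.51 and 1.59 in clone 11B on 1449712_s_at and 1449711_at, against at most 1.02 and 1.38 elsewhere. Atp6v1d, a subunit of the central rotor, was at 1.56 in clone 11B and 0.978 to 1.005 in the others on 1438993_a_at. Its other probe sets lay below the floor in all clones, at 0.542 to 0.550 and 0.857 to 0.865, and with them averaged in the deviation of clone 11B was 0.22 in place of 0.64. Atp6v1f, another rotor subunit, had 0.921 in clone 1D, 1.41 in 11B, 1.00 in 20B, 1.06 in 30 and 0.803 in 42. Atp6v1e2, the testis form of the stalk subunit, was at 1.31 in clone 11B and 0.991 to 1.001 in the others.

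Counted by size, 5 of the 10 measured V1 subunits had a deviation of at least 0.3 log2 units in clone 11B, where 10.2% of all measured genes did. Of these 5, Atp6v1d and Atp6v1e2 passed the range limit through clone 11B alone, so the clone in which they were counted also made them measured. The share of all measured genes was taken under the same limit. With every probe set averaged, 4 V1 subunits reached that size, since Atp6v1d no longer counted. The size of 0.3 is about the spread of a single probe set. Atp6v1h, encoding a subunit needed for activity, went the other way, with 1.00 in clone 1D, 0.729 in 11B, 1.096 in 20B, 0.933 in 30 and 1.11 in 42. Its deviation in clone 11B was -0.52, and -0.17 with the probe sets below the floor averaged in. For the A subunit, Atp6v1a, clone 11B stood at 1.00 on 1422508_at and at 0.742, the lowest of the clones, on 1450634_at. The probe sets of this gene disagreed: 1422508_at was low in clones 30 (0.510) and 42 (0.419) and highest in 1D (1.21), whereas 1450634_at was highest in 20B (1.77) with clones 30 and 42 at 0.986 and 1.00. Atp6v1b2, the B subunit, ranged over 0.10 log2 units on the average of 3 probe sets that differed in their highest clone. Clone 11B was lowest on 1419883_s_at (0.838) and alone above the floor on 1446465_at (1.10, against 0.851 to 0.877). Atp6v1g1, a stalk subunit, was lowest in clone 30 on 1423255_at (0.615) and highest there on 1450926_at (1.07). Atp6v1c2, an alternative form of subunit C, ranged over 0.11. In clone 42, 3 of the 10 V1 subunits, Atp6v1a, Atp6v1c1 and Atp6v1f, lay at least 0.3 below the others, against 7.94% of all genes. Clone 11B is also the clone with the lowest 5′ to 3′ ratios of Actb (0.597) and Gapdh (0.893), and the part of RNA integrity in these values was not tested.

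**Figure D3:**
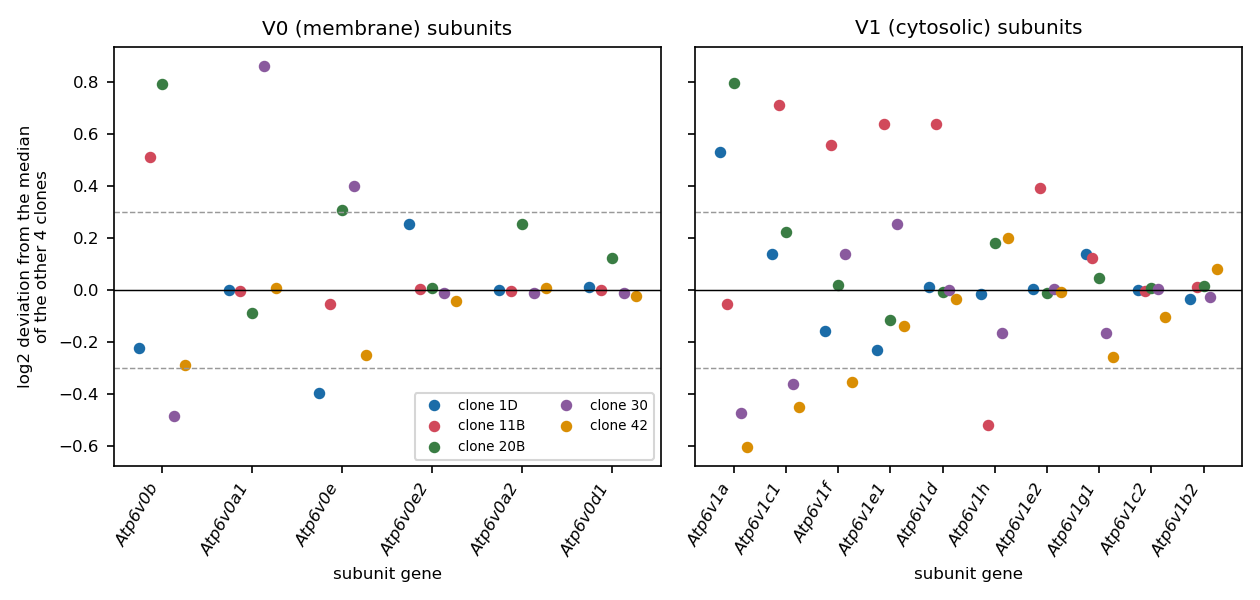
Deviation of each clone (colour, 1 array each) from the median of the other 4 clones, in log2 units, for the measured V0 (left) and V1 (right) subunit genes, with dashed lines at 0.3 and -0.3. Clone 11B is highest for Atp6v1c1, Atp6v1f, Atp6v1e1, Atp6v1d and Atp6v1e2 and lowest for Atp6v1h, while Atp6v0b and Atp6v1a are highest in clone 20B.

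Taking each clone over the 40 measured members, clone 11B had 8 members at least 0.3 log2 units above the others (20.0%, against 10.2% of all genes) and 2 below (5.00%, against 9.3%). Beside the 5 V1 genes, the former were Psap, Atp6v0b and Lipa (the last through a probe set that passed by clone 11B alone), and the latter were Ctsf and Atp6v1h. Among the V1 genes, Atp6v1d and Atp6v1e2 also passed the filter by clone 11B alone. Clone 20B had 6 above (15.0%, against 9.84%), namely Atp6v1a, Atp6v0b, Ctsd, Ctsa, Hexa and Atp6v0e, and 0 below (against 5.59%). Small excesses were frequent in clone 20B: 31 of the 40 lay above the median of the others, by any amount, against 52.8% of all genes, but the median deviation was 0.04 log2 units. With each array centred on its median, 23 of 40 lay above, and the share of all genes was not computed for that setting. Clone 30 had 5 above, Atp6v0a1, Neu1, Hexa, Atp6v0e and Gaa (12.5%, against 11.7%), of which Neu1 was placed there by the filter. It had 6 below, Ctsd, Ctsl, Ctsf, Atp6v0b, Atp6v1a and Atp6v1c1 (15.0%, against 12.7%). Clone 42 had Ctsl alone above (2.50%, against 13.2%) and 6 below, Lamp2, Atp6v1a, Hexa, Atp6v1c1, Lgmn and Atp6v1f (15.0%, against 7.94%). Clone 1D had Atp6v1a, Ctsf and, by the filter, Ctsh above (7.50%, against 11.8%) and 4 of the 40, Mcoln1, Hexa, Lamp1 and Atp6v0e, below (against 5.83% of all genes). The median deviations of the members by clone lay between -0.02 and 0.04 log2 units, against -0.01 to 0.004 over all measured genes.

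**Figure D4:**
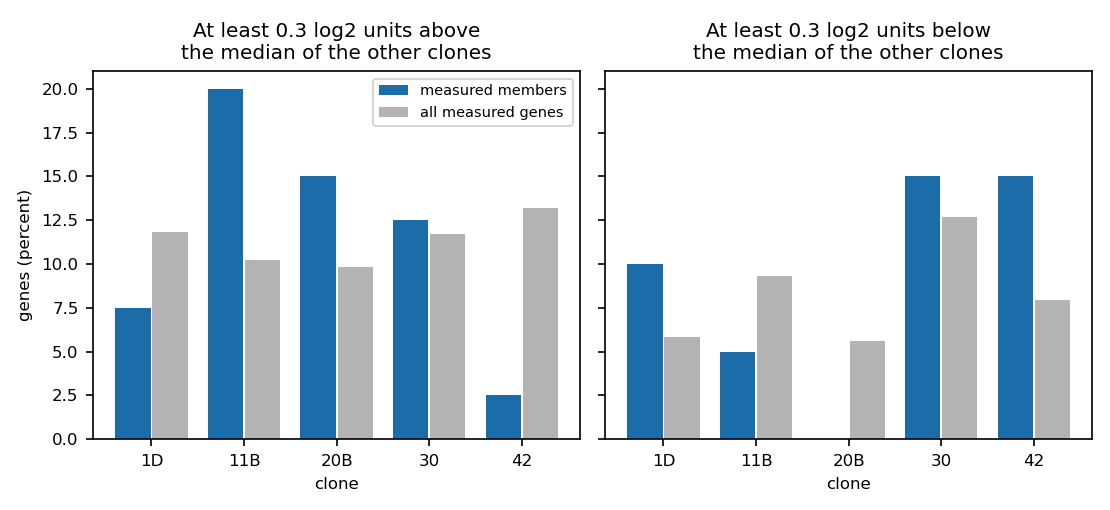
Share of the 40 measured members (blue) and of all 9435 measured genes (grey), in percent, that lay at least 0.3 log2 units above (left) or below (right) the rest, taken as the median of the other 4, for each clone (1 array each). Clone 11B has the tallest blue bar above, at 20.0%, clone 42 has 2.50% above and 15.0% below, and clone 20B has no blue bar below.

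Other genes of the same organelle and pathway were read from separate lists. Of 17 measured lysosomal hydrolases and processing factors (Gnptab, Gnptg, Nagpa and Sumf1) outside the set, 0 reached a range of 1 log2 unit. The widest were Dpp7 (0.80), a dipeptidyl peptidase, and Ids (0.76), which desulfates heparan and dermatan sulfate. Of 14 measured genes of the lysosomal membrane, 3 reached that range: Tpcn1, a cation channel (1.62), Atp6ap2 (1.51) and Laptm4a (1.49). Atp6ap2, an accessory subunit of the same pump, had its highest value in clone 11B at a log2 ratio of 0.90 and its lowest in 42 at -0.61. Laptm4a was lowest in clone 11B at -0.85 and highest in 30 at 0.64, and Tpcn1 was at -0.81 in clone 11B and lowest in 30 at -1.19. Of 22 genes for delivery to lysosomes, 3 did. Rab7, the small GTPase of late endosomes, was highest in clone 11B (0.52) and lowest in 42 (-0.69). Ap3b1, of the adaptor complex AP-3, was lowest in clone 11B (-0.57) and highest in 42 (0.45), and Vps41, of the HOPS tethering complex, was highest in 42 (0.83). Of 19 measured autophagy genes, 4 did. Atg3, a conjugating enzyme, was at 0.60 in clone 11B and -0.92 in 42. Nbr1, an autophagy receptor, was lowest in clone 11B at -1.26, with clone 30 at -0.69. Pik3c3, a lipid kinase, stood farthest out in clone 1D at 0.86 and was lowest in 11B at -0.59. Atg9a was low in clones 30 (-0.81) and 42 (-0.77). These shares stand beside the 13.0% of all measured genes.

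The inhibitors of the cathepsins held the widest difference near this pathway. Cst6 encodes cystatin M/E, an inhibitor of cathepsin L and legumain. Its log2 ratio on 1 probe set was -1.31 in clone 1D, 0.56 in 11B, 0.02 in 20B, 0.00 in 30 and -2.59 in 42. Clone 42 was lowest and clone 1D next, with a range of 3.15 over the clones. Cst3, encoding cystatin C, ran from -0.31 in clone 1D to 0.62 in 20B, and the other 3 measured inhibitors ranged over at most 0.30. Among regulators, Zkscan3, a repressor of autophagy and lysosome genes, ran from -1.92 in clone 1D to 1.16 in 42 over 2 probe sets. Mitf, of the same family as Tfeb, was lowest in clone 42 at -0.86, and Rraga, a GTPase of amino acid sensing at the lysosome, in clone 30 at -0.90.

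Markers of other cell types, some of them rich in lysosomes, were examined beside the members. Of 12 macrophage markers, 4 were measured (Fcgr1, Adgre1, C1qb and Csf1r), with ranges of 0.11 to 0.29 log2 units. The other 8 did not pass the filter, among them Cd68 at 0.507 to 0.509, Ptprc at 0.513 to 0.747 and Tyrobp at 0.480 to 0.481, all below the floor, and Lyz2, which was flat at 0.998 to 1.024. Of 7 endothelial markers 0 passed it, and of 4 osteoclast markers Acp5 alone was measured, with a range of 0.15. Of 8 fibroblast markers 4 were measured: Col1a1, a collagen chain, stood at a log2 ratio of -2.13 in clone 42 and -0.23 to 0.33 in the others, Pdgfra, a growth factor receptor, ran from -0.60 in clone 1D to 0.70 in 42, and Ddr2 and Postn ranged over 0.58 and 0.28. Of 4 smooth muscle markers 3 were measured, with Tagln at 1.83 in clone 30 and -0.19 to 0.60 in the others, and Acta2 and Myh11 ranging over 0.26 and 0.07. Of 7 cardiomyocyte markers 3 were measured, the widest being Myh6 (0.56), highest in clone 42. Clones 30 and 42, where Ctsd, Ctsl and Lamp2 were lowest, are thus also the clones where Tagln and Col1a1 stood farthest out. The other fibroblast markers did not follow Col1a1 in clone 42. Pdgfra (0.70) and Ddr2 (0.34) were highest there, and Postn, at -0.20, lay near clones 1D, 20B and 30. Whether the differences in these markers and in the lysosomal genes are related was not tested. Ratios give no level, so these values do not show that such cells were missing. Of the markers in the labels, Kit was followed on 1 probe set, at 1.18 in clone 20B and 0.991 to 1.002 in the others. Its ratios in clones 1D, 11B, 30 and 42 were repeated together on 31 other probe sets, so their closeness was no measurement. Pou5f1 stood at 0.572 to 0.580, and no probe set was assigned to Ly6a alone.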

How the data were processed

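Total RNA of 5 clones was measured on Affymetrix arrays, 1 per clone. RMA and GCRMA are named in the submitters' processing notes, with no version or role. The deposited values are ratios on a linear scale, as read from the values, and the division by a median or floor is not stated in the sources used here. Of 45101 probe sets, 34945 had 1 gene symbol in the platform annotation, 932 several and 9211 none, and 13 control probe sets also had 1. Symbols were updated through gene IDs for 34741 from a RefSeq table of GRCm38.p6. Control probe sets (64) and those with several symbols were left out. Each gene's value is the mean log2 ratio of its measured probe sets (Python 3.11.15, pandas 2.3.3, numpy 2.4.6).

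With 1 array per clone no test or p-value was computed. Deviations are a clone's log2 value minus the median of the other 4. Ratios of at least 3 clones found again on at least 10 other probe sets were counted as repeated. The members and gene lists were chosen with earlier results of these data known. The size of 0.3 log2 units was added after the values were seen. Every member could be named; values per clone were given for ranges of at least 1 log2 unit, and otherwise for at least the 2 widest of each role; of the other lists up to 4 of the widest were named, and the remaining names were chosen after their values were seen. Calculations were tested on simulated ratios. Protein sequences were not used here. The alternatives were every probe set averaged, the probe set with the highest mean, no cross-hybridizing probe sets (_x_at, _s_at), quantile normalization, median centring, values below the floor set to it, own-median probe sets only, no filter on flat probe sets, no tied probe sets (4 clones within 0.02 log2 units), and each clone left out. Depth does not apply to arrays, whose number limits the precision.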

Additional observations from a re-analysis of the deposited data

How the results depend on the processing

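Each result was recomputed under 14 other settings. The 7 members with a range of at least 1 log2 unit became 4 of 53 with every probe set averaged (7.55%, against 3.74% of all 18193 genes). The 13 differences of that size between pairs of clones became 6. In other settings the share of members with such a range rose from 17.5%. It was 20% with quantile normalization (against 12.8% of measured genes) and 22.9% without tied probe sets (against 15.7%). With a clone left out, the members with such a range numbered 3 to 6 (7.5% to 15%, against 8.18% to 11.3% of all measured genes). The differences between pairs, over fewer pairs, numbered 4 to 10. Clone 30 was the one whose removal moved the first count by over 1.5 times, to 3 (7.5%, against 8.18%). Members apart from all other clones numbered 0, but 1 when a gene was read from its highest-mean probe set (Psap in clone 11B) and 0 to 1 with a clone left out. Centring each array left 5 members with a range of 1 log2 unit (12.5%, against 12.9% of all measured genes), without Atp6v0b and Psap. The 5 V1 subunits high in clone 11B became 4 to 6 in the settings that could give a count. The excess of Lipa in clone 11B became -0.005 log2 units from the highest-mean probe set, with own-median probe sets only and without tied probe sets, which leave out the probe set that carries it. For the clone farthest from the others on each of the 40 members, 495 of 510 recomputed deviations moved by less than the spread of 0.30, 12 moved by more and 3 were those of Lipa. Many could hardly move. For the 24 members on 1 measured probe set, settings that choose among measured probe sets return the same value or drop the gene. Centring shifted the arrays by -0.026 to 0.017 log2 units. The 495 is therefore no measure of robustness. No paired analysis was possible because each clone is a single array. With every probe set averaged, 6 of the 12 moved, all toward 0 (Atp6v0a1, Atp6v1d, Atp6v1h, Ctsf, Ctsl and Neu1), because probe sets below the floor or flat were averaged in. The ratios hide the signal over background, so its limit on each value could not be given.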
